A study of Mus musculus with 22 samples.

Results

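The protein-coding promoters that carried both H3K4me3 and H3K27me3 in Mtf2 gene-trap embryonic stem cells numbered 576 of 21827 (2.64%, exact 95% interval 2.43 to 2.86). They were found by laying the H3K4me3 peak list of these cells against their H3K27me3 list. A promoter reached 1 kb to each side of every transcription start site (TSS) that GENCODE M21 lists for the gene in its basic annotation, and a mark was present when a peak reached the window by at least 1 bp. In what follows a promoter with both marks is called bivalent, as a description of 2 peak lists over the same window. The lists come from populations of cells, so they do not show whether both marks sat on the same allele, the same nucleosome or in the same cell.

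Bivalent promoters are a known feature of embryonic stem cells. H3K4me3, trimethylation of lysine 4 of histone H3, is laid down by Trithorax-related enzymes at CpG-rich promoters, both active and poised. H3K27me3, trimethylation of lysine 27, is made by Polycomb repressive complex 2 (PRC2), whose catalytic subunit is EZH2, and is tied to repression. Promoters of developmental regulators often carry both marks in stem cells and resolve to one of them when cells differentiate. MTF2 is a Polycomb-like partner of PRC2 that binds DNA, and the title of the series is about how MTF2 brings PRC2 to DNA.

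The gene-trap cells were mouse embryonic stem cells with genotype Mtf2 GT/GT, in which a trapping cassette disrupts the coding sequence of Mtf2 (the label writes Mtf). The wild-type cells were of the E14 line, an established mouse embryonic stem cell line. Both were grown in serum with LIF, and no treatment, deletion or age was given beyond these genotypes. The labels name no parental line and no clone for the gene-trap cells, so genotype and line cannot be told apart. Chromatin immunoprecipitation and sequencing (ChIP-seq) gave 2 libraries for each antibody and genotype. Each pair stood behind 1 deposited list, so no spread between cultures could be measured and no difference between genotypes was tested. Intervals cover counting error over promoters, and neighbouring promoters under 1 peak are not independent. The depth of the libraries is unknown, and a mark missing from a list may have been under its threshold. Whether MTF2 was lost in gene-trap cells was not checked, since no list of its peaks there was used. All 20 pluripotency factor genes in the family list, among them Pou5f1, Nanog, Sox2 and Zfp42, had H3K4me3 at their promoters in both genotypes.

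Sequence of 4 promoters shows what the windows look like. Tfap2a, a transcription factor of neural crest and ectoderm, was bivalent in both genotypes and had the most bases under both marks in gene-trap cells. Hoxd12, a posterior Hox gene of the limb, had both marks in gene-trap cells and H3K27me3 only in wild-type cells. Sox1, a regulator of early neural fate, had both marks in its window without a shared base, and was chosen for printing after its values were seen. Gnas, an imprinted gene for a G protein subunit, had H3K4me3 only in gene-trap cells and was bivalent in wild-type cells. The windows run from 250 bp upstream to 50 bp downstream of a RefSeq start, are written 5′ to 3′ on the gene's strand, and come from the RefSeq promoter table (GRCm38.p6). Capitals mark GCG and its reverse complement CGC, triplets that hold the CpG dinucleotide.
Tfap2a, chr13:40734871-40735170 (minus strand): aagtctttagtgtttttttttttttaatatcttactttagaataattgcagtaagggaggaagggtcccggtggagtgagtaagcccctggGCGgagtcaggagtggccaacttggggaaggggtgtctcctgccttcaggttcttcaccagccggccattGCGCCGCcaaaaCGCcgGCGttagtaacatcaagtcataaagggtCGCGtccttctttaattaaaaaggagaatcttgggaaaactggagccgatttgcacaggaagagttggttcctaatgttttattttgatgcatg
Hoxd12, chr2:74674763-74675062 (plus strand): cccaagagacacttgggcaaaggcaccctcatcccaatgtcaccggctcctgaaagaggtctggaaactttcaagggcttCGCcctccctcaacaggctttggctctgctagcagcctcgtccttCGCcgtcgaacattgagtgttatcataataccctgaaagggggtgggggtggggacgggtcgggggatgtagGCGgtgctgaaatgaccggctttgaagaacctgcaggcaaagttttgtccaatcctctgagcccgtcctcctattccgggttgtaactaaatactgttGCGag
Sox1, chr8:12395269-12395568 (plus strand): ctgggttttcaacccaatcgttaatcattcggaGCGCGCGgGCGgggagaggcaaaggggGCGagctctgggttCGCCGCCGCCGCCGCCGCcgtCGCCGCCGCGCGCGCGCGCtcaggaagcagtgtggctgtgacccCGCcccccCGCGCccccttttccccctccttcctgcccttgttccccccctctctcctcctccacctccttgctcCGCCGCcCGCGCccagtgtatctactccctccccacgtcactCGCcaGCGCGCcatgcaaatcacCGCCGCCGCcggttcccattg
Gnas, chr2:174327499-174327798 (plus strand): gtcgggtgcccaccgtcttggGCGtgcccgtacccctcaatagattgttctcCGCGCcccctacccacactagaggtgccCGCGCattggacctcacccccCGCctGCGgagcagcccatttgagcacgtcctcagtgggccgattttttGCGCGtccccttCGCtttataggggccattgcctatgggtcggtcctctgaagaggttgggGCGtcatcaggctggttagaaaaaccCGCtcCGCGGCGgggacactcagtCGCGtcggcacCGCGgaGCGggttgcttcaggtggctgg
These windows held 8 matches of GCG or CGC at Tfap2a, 4 at Hoxd12, 43 at Sox1 and 23 at Gnas, with overlapping matches counted. In gene-trap cells all 300 bases were under H3K4me3 at each of the 4 genes. H3K27me3 covered all 300 bases at Tfap2a and Hoxd12 in gene-trap cells, and none at Sox1 and Gnas. In wild-type cells H3K27me3 covered all 300 bases at Tfap2a, Hoxd12 and Gnas and none at Sox1. The match count did not follow the class in these 4 windows. Of the 576 genes, 398 were matched to the RefSeq table by symbol, with 507 windows between them. GCG or CGC occurred in 96.6% of these windows, in 96.6% of the windows of promoters that had lost H3K27me3, and in 86.2% of all windows of the table. The median was 15 matches per window in gene-trap bivalent promoters and 15 in those that had lost H3K27me3, against 9 over all windows.

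Bivalency in gene-trap cells was what remained of wild-type bivalency, with H3K27me3 gone from most windows and H3K4me3 present in nearly all. Gene-trap cells had 576 bivalent promoters, 13862 (63.5%) with H3K4me3 only, 9 (0.0412%) with H3K27me3 only and 7380 (33.8%) with neither mark. Wild-type cells had 3984 bivalent promoters (18.3%, interval 17.7 to 18.8), 10322 (47.3%) with H3K4me3 only, 222 (1.02%) with H3K27me3 only and 7299 (33.4%) with neither. The totals with H3K4me3 were close, at 14438 promoters in gene-trap cells and 14306 in wild-type cells. The totals with H3K27me3 were 585 in gene-trap cells and 4206 in wild-type cells. Almost every promoter that had H3K27me3 also had H3K4me3, 576 of 585 (98.5%, interval 97.1 to 99.3) in gene-trap cells and 3984 of 4206 (94.7%, 94.0 to 95.4) in wild-type cells.

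**Figure D1:**
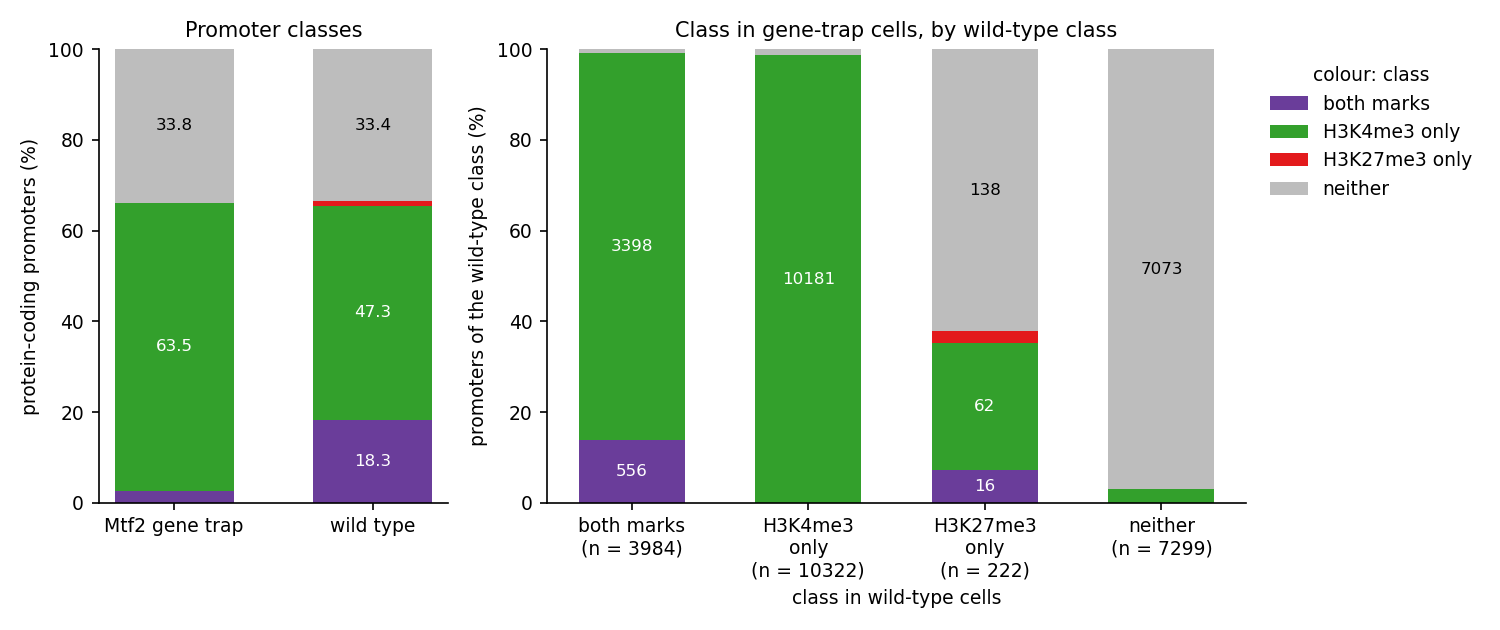
Left, share of the 21827 protein-coding promoters (%) in each class in Mtf2 gene-trap and wild-type cells, 1 pair of lists each. Right, class in gene-trap cells (%) of the promoters of each wild-type class, with numbers of promoters in the bars. The bivalent share is 2.64% in gene-trap cells and 18.3% in wild-type cells, and most wild-type bivalent promoters (3398 of 3984) have H3K4me3 only in gene-trap cells.

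Of the 3984 wild-type bivalent promoters, 556 (14%, interval 12.9 to 15.1) were bivalent in gene-trap cells, and these are called kept below. A further 3398 (85.3%) had H3K4me3 only and are said to have lost H3K27me3, 30 had neither mark, and none had H3K27me3 only. H3K4me3 was thus still present at 3954 of the 3984 (99.2%, interval 98.9 to 99.5). Seen from the gene-trap cells, 556 of the 576 bivalent promoters (96.5%) were bivalent in wild-type cells. Another 16 had H3K27me3 only in wild-type cells, 2 had H3K4me3 only and 2 had neither. In 222 windows with H3K27me3 only in wild-type cells, the gene-trap lists had H3K4me3 at 78 (35.1%, interval 28.9 to 41.8), 16 of them together with H3K27me3. Among the 7299 wild-type windows with neither mark, 223 (3.06%, interval 2.67 to 3.48) had H3K4me3 in gene-trap cells.

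The class of a promoter near the edge of the window rests on few bases. In gene-trap cells 18 of the 576 promoters had 100 bp or less of H3K27me3 in the window. Among them were Gata5 with 11 bp, Irx5 with 54 bp, Foxc1 with 55 bp, Wnt5b with 83 bp and Ephb1 with 90 bp. Just outside, 8 promoters with H3K4me3 only had H3K27me3 within 100 bp of the window. These were Hey1 at 27 bp, Kcng2 at 32 bp, Commd3 at 35 bp, Shisa6 at 42 bp, Syt12 at 45 bp, Prickle1 at 57 bp, Foxe3 at 89 bp and Hoxc13 at 95 bp.

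Over the genome, the marks shared 1.72 Mb in 1152 regions in gene-trap cells and 9.68 Mb in 6136 regions in wild-type cells. The shared bases were 36.9% of the 4.66 Mb under H3K27me3 in gene-trap cells and 33% of the 29.3 Mb in wild-type cells. Of the bases under H3K4me3 they were 3.27% of 52.6 Mb in gene-trap cells and 15.1% of 64.3 Mb in wild-type cells. The share of H3K27me3 that lay on H3K4me3 was therefore of like size in both genotypes, while the length of H3K27me3 differed. Of the gene-trap H3K27me3 peaks, 796 of 963 (82.7%) touched an H3K4me3 peak, and 5409 of 6294 (85.9%) did so in wild-type cells. The 167 gene-trap H3K27me3 peaks that touched none lay a median of 4429 bp from the nearest H3K4me3 peak, and 57 of them (34.1%) were within 500 bp. In wild-type cells 885 peaks touched none, at a median of 19228 bp, and 45 (5.08%) were within 500 bp.

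Wild-type shared bases kept H3K4me3 far more widely than H3K27me3. Of the 9.68 Mb, 91.4% were under gene-trap H3K4me3 and 15.6% under gene-trap H3K27me3. Both gene-trap marks covered 14.2%, H3K4me3 alone 77.2%, H3K27me3 alone 1.38% and neither 7.26%. Wild-type H3K27me3 outside H3K4me3 was covered by gene-trap H3K27me3 to a like extent, 15%. Of the 1.72 Mb shared in gene-trap cells, 99.0% lay under wild-type H3K27me3 and 80.1% under wild-type H3K4me3. The remaining part of it held 329314 bp (19.1%) where gene-trap H3K4me3 lay on bases that had only H3K27me3 in wild-type cells.

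At most of the 576 bivalent promoters of gene-trap cells the marks overlapped inside the window. They shared at least 1 base in the window at 547 promoters and none at 29, and 410 (71.2%) shared 500 bp or more. The median shared length in the window was 880 bp (quartiles 423 and 1599) in gene-trap cells, and 1645.5 bp at the same genes in wild-type cells. A TSS lay under both marks at 285 promoters (49.5%) in gene-trap cells and at 514 (89.2%) in wild-type cells. At 263 promoters (45.7%) a TSS was under H3K4me3 and none under H3K27me3 in gene-trap cells, against 20 (3.47%) in wild-type cells. H3K27me3 filled the whole window at 166 promoters (28.8%) in gene-trap cells and at 464 (80.6%) in wild-type cells.

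Along the most upstream TSS of each gene, gene-trap H3K27me3 had a dip close to the TSS. It covered the TSS itself at 46.2% of the 576 promoters, against 56.6% at 1000 bp upstream and 76.7% at 1300 bp downstream. In wild-type cells H3K27me3 covered the TSS at 93.1% of the same promoters. H3K4me3 covered it at 89.2% in gene-trap cells and 86.3% in wild-type cells. Among the 287 genes with a single annotated TSS, gene-trap H3K27me3 covered the TSS at 46.3%, the position 1100 bp upstream at 63.1% and the position 1200 bp downstream at 81.5%.

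**Figure D2:**
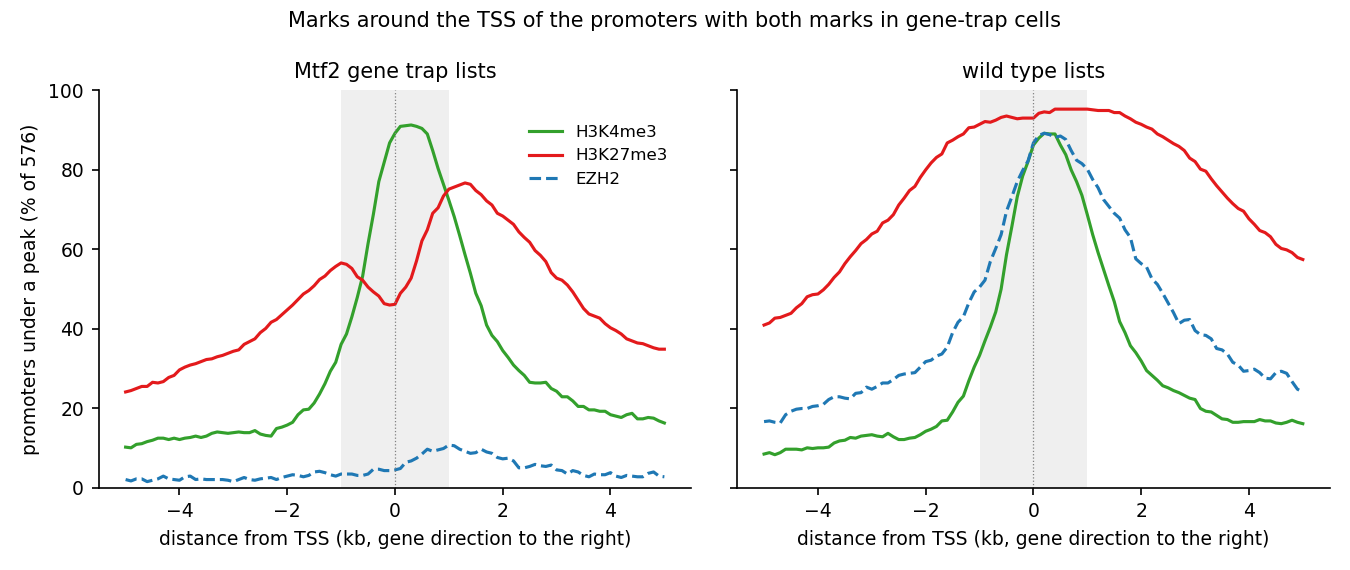
Share of the 576 gene-trap bivalent promoters (%) that lie under a peak at each distance from the most upstream TSS (kb), for H3K4me3, H3K27me3 and EZH2 in gene-trap lists (left) and wild-type lists (right). Gene-trap H3K27me3 covers 46.2% at the TSS and 76.7% at 1300 bp downstream, whereas wild-type H3K27me3 covers 93.1% at the TSS. The grey band is the 1 kb window on either side that chose the promoters.

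The dip varied with the width of the remaining H3K27me3 peak. In 4 classes of that width, 144 promoters each, gene-trap H3K27me3 covered the TSS at 11.1% for peaks of 293 to 2101 bp, 39.6% for 2124 to 3900 bp, 56.9% for 3908 to 8364 bp and 77.1% for 8374 to 67885 bp. The window rule lets a short peak count without reaching the TSS, so this share depends on width by construction. Wild-type bivalent promoters with an H3K27me3 peak of 3904 bp or less, the median gene-trap width, correspond in width to the 2 narrower classes only. At those 1749 promoters wild-type H3K27me3 covered the TSS at 61.9%, the position 600 bp downstream at 82.8% and the position 500 bp upstream at 56.1%. The 40 bivalent Hox and Evx promoters had the TSS under gene-trap H3K27me3 at 92.5% and the position 1000 bp downstream at 100%.

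The H3K27me3 domains that remained were narrower than in wild-type cells. The widest H3K27me3 peak at a bivalent promoter had a median width of 3904 bp in gene-trap cells and 10151.5 bp at the same genes in wild-type cells. Genes without a wild-type H3K27me3 peak counted as 0 bp in the latter median. For the 556 promoters bivalent in both, gene-trap H3K27me3 covered a median of 49.1% (quartiles 31.7 and 71.6) of the wild-type peak. At 103 promoters it covered 80% or more, and at 58 less than 20%. The 576 promoters lay under 525 distinct widest peaks, and 80 genes shared theirs with another gene of the set.

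H3K4me3 peaks at the 556 promoters bivalent in both had nearly the same width in both genotypes. The median was 2597.5 bp in gene-trap cells and 2421 bp in wild-type cells. The median log2 ratio of widths, gene trap over wild type, was 0.03 at the 556 promoters bivalent in both, and 57.9% were wider in gene-trap cells. Where H3K27me3 was lost, the median log2 ratio was -0.00 and 49.0% were wider. Over all 14137 promoters with H3K4me3 in both genotypes the median was -0.13 and 28.2% were wider, and at the 10181 with H3K4me3 only in both it was -0.19 with 19.6% wider. Wild-type width differs between these classes, so the ratio was also read within 5 classes of it. In the narrowest class, up to 1559 bp, 69.4% of the promoters that stayed bivalent, 66.7% of those that lost H3K27me3 and 49.8% of those with H3K4me3 only in wild-type cells were wider in gene-trap cells. In the widest class, from 4224 bp, the shares were 35.2%, 22.7% and 8.37%. These differences were not tested, and the widths depend on the depth and threshold of each list.

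Promoters with a gene-trap EZH2 peak were nearly all in this set. Of the 160 promoters with a gene-trap EZH2 peak, 155 were bivalent in gene-trap cells and 5 had H3K4me3 only. The converse did not hold, since the 155 were 26.9% (interval 23.3 to 30.7) of the 576, and at the other 421 bivalent promoters no gene-trap EZH2 peak was listed. That share was 13% where the TSS had to lie inside the peaks and 10.5% with peaks of at least 500 bp only. Only 2 of the 3398 promoters that lost H3K27me3 had one. The bivalent promoters with EZH2 had longer overlaps and wider domains. Their shared length had a median of 1742 bp, against 660 bp at those without EZH2, and their widest H3K27me3 peak 11791 bp against 2907 bp. A TSS lay under gene-trap H3K27me3 at 82.6% of promoters with EZH2 and 42.0% of those without. In the wild-type lists the 2 subsets also differed, with median H3K27me3 widths of 20811 bp and 8000 bp.

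In wild-type cells the same 576 promoters were nearly all under PRC2 and MTF2. EZH2 peaks of wild-type cells touched 97.4% of them and 82.9% of the promoters that lost H3K27me3, beside 16.6% of all promoters. MTF2 peaks touched 97.2% and 80.4%, beside 15.9% of all promoters. Wild-type H3K27me3 peaks had a median width of 10124 bp at the 556 promoters bivalent in both genotypes. The median was 3901 bp at those that lost H3K27me3, and width was not separated here. The base composition of the classes with H3K4me3 was close. In a stretch of 1 kb centred on the most upstream TSS, gene-trap bivalent promoters had a median of 6.39 CpG per 100 bp. The median was 6.19 at promoters that lost H3K27me3 and 6.19 at those with H3K4me3 only in both genotypes. It was 0.799 at those with neither mark in both genotypes and 4.30 over all. GCG on either strand had medians of 4.80, 4.70, 4.30, 0.3 and 2.80 per 100 bp in the same order.

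The families named here are complete sets of genes by symbol, and 254 of the 576 bivalent genes (44.1%) belonged to any of 47. The share of all protein-coding promoters that belongs to the 47 families was not computed, so the 44.1% stands without a background. Homeobox families gave the most. These are transcription factors that set position and cell identity in the embryo. Here they comprise the Hox, Irx, Pax, sine oculis, LIM, Dlx, Nkx, Msx-like, paired-type, forebrain and midbrain, Meis and POU groups. Homeobox genes of other groups, such as Cdx2 and Pdx1, are not counted in them. Of their 166 genes, 127 (76.5%) were bivalent in gene-trap cells and 143 (86.1%) in wild-type cells, and 121 of those 143 (84.6%, interval 77.6 to 90.1) were bivalent in both, beside 14% of all wild-type bivalent promoters. At 71.7% of the 127 a TSS was under gene-trap H3K27me3, and 58.3% had a gene-trap EZH2 peak, beside 53.0% and 26.9% of all 576.

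Within the Hox clusters 38 of 39 genes were bivalent in gene-trap cells, and 34 were in wild-type cells. Hoxc13 was the exception, with its nearest gene-trap H3K27me3 at 95 bp outside the window. The 38 genes lay under 14 widest gene-trap H3K27me3 peaks, so they are not independent. The peak of 59179 bp on chromosome 2 (74656043 to 74715221) was the widest at 7 of the 9 HoxD genes, inside a wild-type peak of 72082 bp. Gene-trap EZH2 peaks reached 26 of the 38. Hoxa10, a posterior gene of the trunk and uterus, had 2574 bp under both marks in gene-trap cells and 2831 bp in wild-type cells.

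Other homeobox families also kept most of their wild-type bivalent promoters. LIM homeobox genes, which specify motor neurons and interneurons, kept 11 of 12, all but Lhx3. Forebrain and midbrain genes kept 16 of 18, among them Otx2, En1, Emx2 and Gsx2, and lost Gbx2 and Dbx2. Pax genes kept 7 of 8, among them Pax2, Pax3, Pax6 and Pax7, and lost Pax8. Iroquois genes kept 5 of 6, all but Irx6. At 0 of these 5 did a TSS lie under gene-trap H3K27me3, and 0 had a gene-trap EZH2 peak. Their median shared length was 310 bp. Nkx genes kept 10 of 12, the Msx, Bar, Vax and Hmx genes 10 of 12, paired-type genes 14 of 19 and POU genes 6 of 8. Dlx genes kept 4 of 6, sine oculis genes 3 of 5 and Meis and Pbx genes 2 of 3. A TSS lay under gene-trap H3K27me3 at 1 of the 6 kept POU genes and 1 of the 4 kept Dlx genes. Their median shared lengths were 223.5 bp and 617 bp. Six3, which acts in forebrain and eye, had 3317 bp shared in gene-trap cells and 2814 bp in wild-type cells. Its relatives Six5 and Six6 had none in gene-trap cells, against 555 bp and 1593 bp in wild-type cells.

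**Figure D3:**
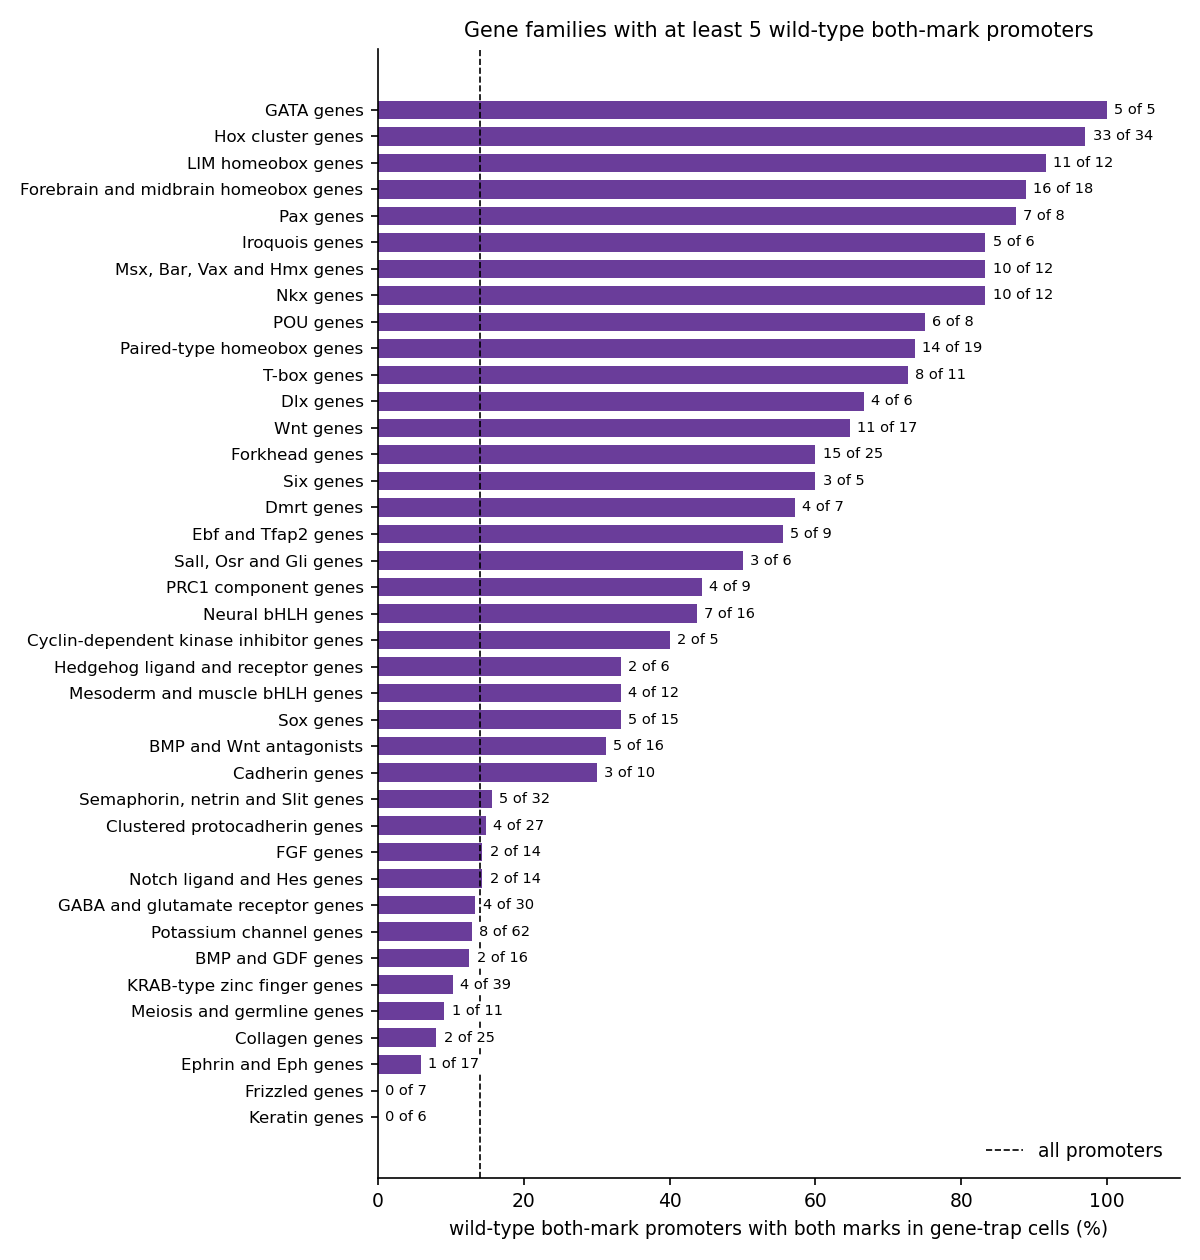
Share of wild-type bivalent promoters that were bivalent in gene-trap cells (%), for each gene family with at least 5 such promoters; counts stand beside the bars and the dashed line is the share over all promoters (14%). GATA genes (5 of 5, Gata5 through 11 bp of H3K27me3) and Hox genes (33 of 34) stand at the top, Frizzled (0 of 7) and keratin genes (0 of 6) at the bottom.

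Transcription factor families outside the homeobox class stayed bivalent less completely. Of their 169 genes, 63 were bivalent in gene-trap cells and 112 in wild-type cells, and 61 of the 112 (54.5%, interval 44.8 to 63.9) were in both. GATA genes, regulators of blood, heart and endoderm, kept 5 of 5, but a TSS lay under gene-trap H3K27me3 at 1 of them and Gata5 counted through 11 bp at the edge of its window. Gata2 had 3271 bp shared in gene-trap cells and 3309 bp in wild-type cells, and Gata4 had 1256 bp and 2024 bp. T-box genes kept 8 of 11, with Tbx1, T, Eomes and Tbx20 among the 8 and Tbx18 and Tbx21 among the lost. Forkhead genes kept 15 of 25, among them Foxa2, which acts in endoderm and floor plate, with 2163 bp in gene-trap cells and 2066 bp in wild-type cells.

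Sox and bHLH genes kept a smaller share. Sox genes kept 5 of 15, which were Sox1, Sox6, Sox9, Sox14 and Sox17. Sox11 and Sox21, neural factors, had no H3K27me3 in the window in gene-trap cells, and had the whole window of 2001 bp under both marks in wild-type cells. Sox21 lay in a wild-type domain of 19038 bp, of which 4252 bp remained outside its window. Neural bHLH genes kept 7 of 16, with Neurog1, Neurog2, Ptf1a and Atoh1 bivalent and Neurog3 and Ascl2 not. Mesoderm and muscle bHLH genes kept 4 of 12, with Hand1, Hand2, Tal1 and Mesp2 bivalent and Twist1 not. Twist1 had a wild-type H3K27me3 peak of 18663 bp, and no base of it was under a gene-trap peak.

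Among signalling genes, 24 of 90 wild-type bivalent promoters (26.7%, interval 17.9 to 37.0) were bivalent in gene-trap cells, beside 14% of all. Wnt ligands kept 11 of 17, with Wnt5a at 3279 bp shared in gene-trap cells and 2621 bp in wild-type cells. Their Frizzled receptors kept 0 of 7, and all 7 had H3K4me3 only. BMP and GDF ligands kept 2 of 16 (Bmp6 and Gdf6), FGF ligands 2 of 14 (Fgf8 and Fgf9), Notch ligands and Hes factors 2 of 14 (Dll1 and Dll4), and secreted BMP and Wnt antagonists 5 of 16 (Fst, Frzb, Grem1, Sfrp5 and Fstl4). The shares of the BMP and GDF, FGF and Notch groups were near the 14% over all promoters. Hedgehog ligands and receptors kept 2 of 6. Shh had 932 bp shared in gene-trap cells and 868 bp in wild-type cells, Ihh had 1531 bp and 1586 bp, and Dhh had none in gene-trap cells and 1312 bp in wild-type cells.

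Neuronal channel, receptor and guidance genes stayed bivalent at a share near that of all promoters. In these families 18 of 141 (12.8%, interval 7.74 to 19.4) were bivalent in both genotypes, beside 14% of all. Potassium channel genes kept 8 of 62, with Kcnd3 at 1569 bp shared in gene-trap cells and 2422 bp in wild-type cells. GABA and glutamate receptor genes kept 4 of 30 (Gabra5, Grin2b, Grm2 and Grm4), semaphorin, netrin and Slit genes 5 of 32, and ephrin and Eph genes 1 of 17. Collagen genes kept 2 of 25 (Col12a1 and Col14a1). No olfactory receptor gene (of 1133), ribosomal protein gene (of 82), proteasome gene (of 39) or keratin gene (of 53) was bivalent in gene-trap cells. In wild-type cells these families had 1, 1, 2 and 6 bivalent promoters.

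Genes of the Polycomb system and of the stem cell state were mostly in the class with H3K4me3 only. None of 13 genes for PRC2 subunits and partners was bivalent in gene-trap cells, and of these Phf19 alone was in wild-type cells. Mtf2 itself had H3K4me3 only in both genotypes, in a peak of 3369 bp in gene-trap cells and 21320 bp in wild-type cells. PRC1 components kept 4 of 9, among them Bmi1, Cbx2 and Cbx8. Bmi1 had 1234 bp shared in gene-trap cells and 2695 bp in wild-type cells. Bcor had none in gene-trap cells and 3320 bp in wild-type cells. Of the pluripotency genes Esrrb alone was bivalent in gene-trap cells, with 1184 bp shared in gene-trap cells and 1813 bp in wild-type cells at 1 or more of its 4 start sites. The cell cycle inhibitor genes Cdkn1c and Cdkn2a were bivalent in gene-trap cells. Cdkn2a had 253 bp shared in gene-trap cells and 3043 bp in wild-type cells, whereas its neighbour Cdkn2b had none and 802 bp.

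The width of the wild-type H3K27me3 peak went with staying bivalent. A promoter stayed bivalent through 1 bp or more of gene-trap H3K27me3 in its window, so the share may depend on width in part by this rule. Genes under 1 wide peak were each counted. In 5 classes of that width of like size, from the narrowest up, 0.753%, 2.00%, 5.17%, 13% and 48.8% of wild-type bivalent promoters were bivalent in gene-trap cells. The widest class held 389 of 797, with peaks of 6900 to 133253 bp (interval 45.3 to 52.3). Homeobox genes sat mostly in that class, 128 of 143, and their wild-type peaks had a median of 18655 bp, where all wild-type bivalent promoters had 4250.5 bp. Within it, 119 of the 128 homeobox promoters (93.0%, interval 87.1 to 96.7) stayed bivalent. The share was 57 of 85 (67.1%, 56 to 76.9) for other transcription factors, 16 of 34 (47.1%, 29.8 to 64.9) for signalling genes and 10 of 27 (37.0%, 19.4 to 57.6) for neuronal genes. For genes outside these groups it was 187 of 523 (35.8%, 31.6 to 40.0). The median width within the class also differed, at 20487.5 bp for homeobox genes, 15672 bp for other transcription factors and 8774 bp for genes outside the groups. Family and width were not separated further, and the differences were not tested.

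**Figure D4:**
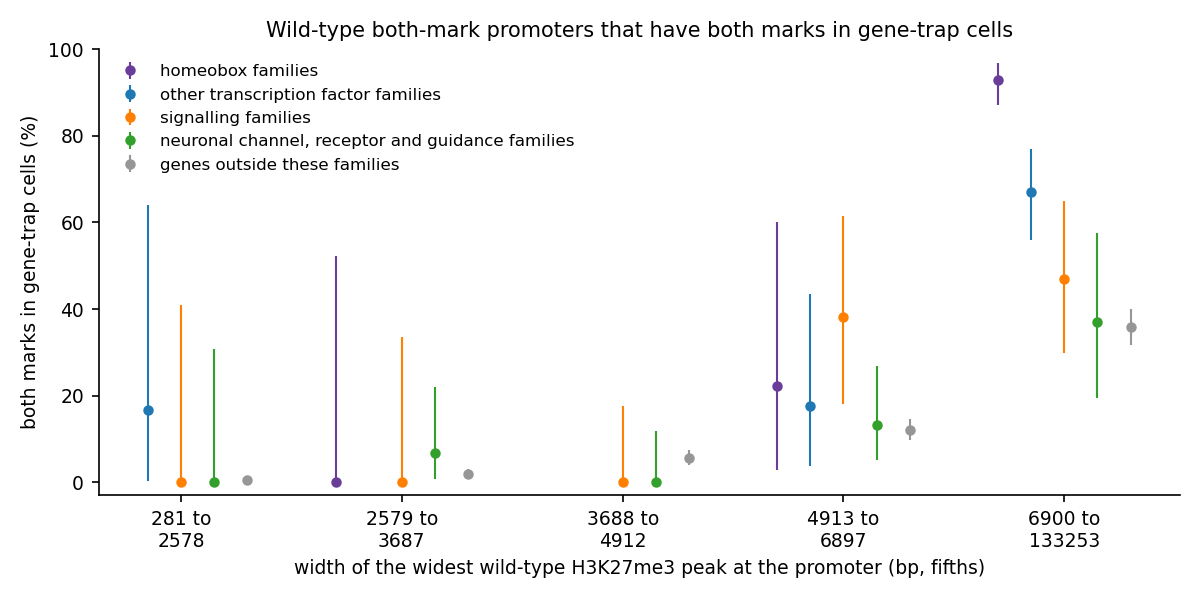
Share of wild-type bivalent promoters that were bivalent in gene-trap cells (%), by class of the width of the widest wild-type H3K27me3 peak (bp, 5 classes of like size) and by group of gene families. Points are shares, bars exact 95% intervals over promoters; groups with under 5 promoters in a class are left out. In the widest class homeobox families stand at 93.0% and genes outside the families at 35.8%.

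By the number of bases under both marks, developmental transcription factors led the gene-trap bivalent set. A window grows with the number of start sites of a gene, so genes with several rank high. Tfap2a, with 6 start sites on chromosome 13, had 6949 bp shared in gene-trap cells and 7107 bp in wild-type cells. Its widest gene-trap H3K27me3 peak (40731354 to 40746638) measured 15285 bp, against 21721 bp in wild-type cells. Otx2, which specifies forebrain and midbrain, had 6580 bp shared in gene-trap cells and 5745 bp in wild-type cells, and its H3K27me3 peak measured 18086 bp and 16332 bp. The Tfap2a and Otx2 windows were thus about as fully covered by both marks as in wild-type cells.

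Pax6, a regulator of eye and brain, had 4940 bp shared in gene-trap cells and 4749 bp in wild-type cells. Tbx1, which acts in the pharyngeal arches, had 4002 bp, the whole of its window, and 3409 bp. Osr2 had 4002 bp in both genotypes and Skor1 3982 bp in both, which were their whole windows. Their widest H3K27me3 peaks were narrower in gene-trap cells, at 11791 bp against 12975 bp for Osr2 and 17045 bp against 20246 bp for Skor1. Nkx2-1, a thyroid, lung and forebrain factor, had 3598 bp in gene-trap cells and 3761 bp in wild-type cells. The growth factor gene Fgf9 had 4461 bp and 5281 bp. At Otx2, Pax6 and Tbx1 the shared length in gene-trap cells was above that in wild-type cells. At Osr2 and Skor1 it was equal, at the limit set by the window. Each of the genes named here by shared length had a gene-trap EZH2 peak in the window.

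**Figure D5:**
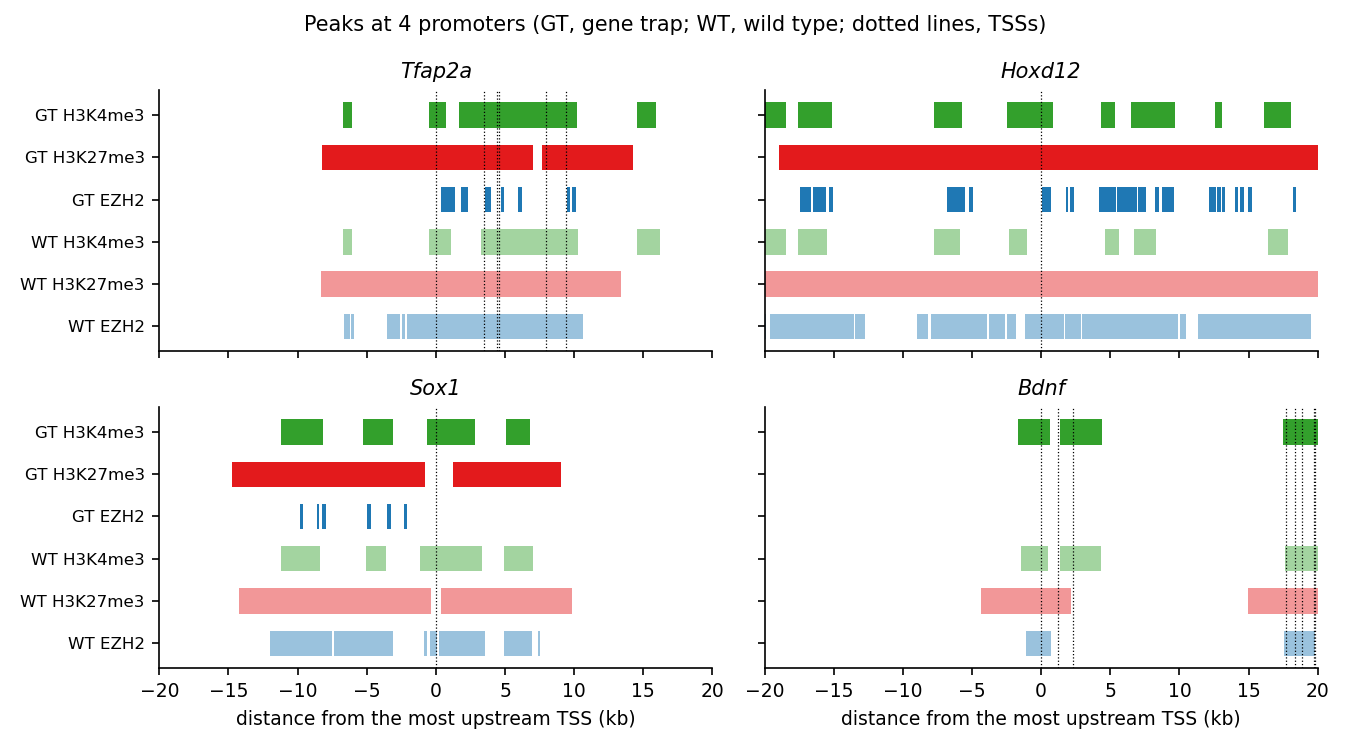
Peaks of H3K4me3, H3K27me3 and EZH2 in gene-trap cells (GT, upper 3 rows) and wild-type cells (WT, lower 3 rows) within 20 kb of the most upstream TSS (kb, in the direction of the gene) of Tfap2a, Hoxd12, Sox1 and Bdnf. Boxes are peaks to scale and dotted lines are TSSs. Tfap2a has overlapping marks in both genotypes, Hoxd12 has H3K4me3 over its TSS in gene-trap cells only, Sox1 has H3K27me3 on either side of its TSS, and Bdnf has no gene-trap H3K27me3.

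Of the gene-trap bivalent promoters that were not bivalent in wild-type cells, most had H3K4me3 in gene-trap cells on a wild-type H3K27me3 domain. At Hoxd12 a gene-trap H3K4me3 peak of 3267 bp lay wholly under gene-trap H3K27me3, with 1828 bp of it inside the window. In wild-type cells the nearest H3K4me3 peak ended at position -1031 relative to the TSS, just outside the window. Hoxa3 (1595 bp shared), Hoxb1 (956 bp), Hoxb2 (763 bp) and Hoxb3 (696 bp) had no H3K4me3 in the wild-type window and 2265, 1459, 3256 and 2592 bp peaks in gene-trap cells. Zic4, a cerebellar factor, had 1645 bp shared in gene-trap cells and Osr1, a kidney and heart factor, 1161 bp, also without wild-type H3K4me3. Coil, the gene for the Cajal body protein coilin, was of the other kind, with H3K4me3 only in wild-type cells. In gene-trap cells it had an H3K27me3 peak of 3244 bp, 1735 bp of shared bases and a gene-trap EZH2 peak. It had 0.5 CpG per 100 bp in the 1 kb centred on the most upstream of its start sites. Duxf3 (1805 bp shared) belongs to a repeated gene family, so reads of its copies may not have been told apart.

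At 29 promoters both marks were in the window without a shared base. Sox1 had a gene-trap H3K27me3 peak of 13971 bp that ended at position -758 relative to its TSS, in bp, and another that began at 1209. The gene-trap H3K4me3 peak ran from -653 to 2832, so it overlapped the downstream H3K27me3 peak beyond the window and shared no base with either inside it. In wild-type cells the H3K27me3 peaks ended at -380 and began at 354, and 1268 bp were shared. The gap at the Sox1 TSS was therefore present in both genotypes and wider in gene-trap cells. Pou4f1, a sensory neuron factor, had no shared base in gene-trap cells and 1734 bp in wild-type cells, and its widest H3K27me3 peak measured 5316 bp and 21749 bp. Prdm8 had none in gene-trap cells and 1336 bp in wild-type cells, and Bsx, a hypothalamic factor, none and 292 bp.

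Among the 3398 promoters that lost H3K27me3, the 10 with the most wild-type overlap comprised 2 zinc finger genes and 8 genes with other roles. Gnas had no shared base in gene-trap cells and 5346 bp in wild-type cells, and its widest H3K4me3 peak measured 10511 bp in gene-trap cells and 18059 bp in wild-type cells. Bdnf, the gene of a neurotrophin, had none in gene-trap cells and 5330 bp in wild-type cells, with H3K4me3 peaks of 3243 bp and 3065 bp. The same held for Shank3 (3841 bp in wild-type cells), a scaffold of synapses, the ankyrin genes Ank1 (3894 bp) and Ank2 (3817 bp), the cytoskeletal linker gene Plec (3882 bp), the adhesion gene Pcdh1 (3900 bp) and the phosphodiesterase gene Pde10a (3795 bp). The zinc finger genes Zfp536 (4572 bp) and Zfp516 (4002 bp) completed the 10. Zfp516 lay in a wild-type H3K27me3 peak of 16781 bp, wider than the median of 10124 bp at the promoters that stayed bivalent.

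The reverse state was rare. Of the 9 promoters with H3K27me3 only in gene-trap cells, 6 had H3K27me3 only in wild-type cells as well and 3, all predicted genes, had neither mark. Among the 6 were Hpse2 (H3K27me3 peak of 3960 bp in gene-trap cells and 7470 bp in wild-type cells), the protocadherin genes Pcdhb20 (2145 bp and 4855 bp) and Pcdhb19 (1914 bp and 3913 bp), Tcam1 (1756 bp and 3207 bp) and Pcdhb17, which was named after its values were seen.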

How the data were processed

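Of the 22 samples in 12 groups of the series, 14 libraries stand behind the 7 peak lists used here, 2 per list. Each deposited list gives the chromosome, start and end of regions in bp (a position, not a count, with no score or height), and starts counted from 0 were turned into positions counted from 1. CASAVA, BWA (0.7.10-r789), MACS2 (2.7) and the build mm10, GRCm38, are named per the submitters' processing notes. Their roles and settings, the peak threshold and what MAnorm and unbiased in the list names stand for are not given in the sources used here. A list was taken to stand for both of its libraries, since each names it per the labels.

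Promoters were the windows within 1 kb of each TSS of protein-coding transcripts in the basic set of GENCODE M21, joined per gene symbol, without the mitochondrial genome. Marks were called at 1 bp or more of overlap, and shared bases were the intersection of the lists. Interval arithmetic, tested on simulated data, used Python 3.11.15, NumPy 2.4.6 and pandas 2.3.3, exact Clopper-Pearson intervals SciPy 1.17.1, and figures matplotlib 3.10.9. A width quoted for a gene belongs to the widest peak in its window. No test between genotypes was made, since each group has 1 list.

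The members, the gene families and the rules were chosen with earlier results of these data known. Predicted genes were passed over for naming. Named genes were the 10 with the most shared bases in gene-trap cells, the 10 such genes not bivalent in wild-type cells, the 10 that lost H3K27me3 with the most wild-type shared bases, 5 with H3K27me3 only, up to 3 kept and 2 lost per family, the PRC2 and pluripotency genes, and 5 without a shared base. The values of some genes these rules take are not reported here. Others in lists of family members are named without rank. Alternatives changed the window, the overlap, the peak width and the counting of TSSs.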

Additional observations from a re-analysis of the deposited data

How the results depend on the processing

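No paired analysis was possible because each group has 1 list for both libraries, and for the same reason no replicate could be left out. Of 64 alternative values, 52 stayed within the limits set for a change and 12 did not. When a TSS itself had to lie inside the peaks, 285 promoters were bivalent in gene-trap cells and 23 had H3K27me3 only, 8.29% of wild-type bivalent promoters were kept, and 13% of the gene-trap bivalent ones had gene-trap EZH2. With 1 TSS per gene, 19 promoters had H3K27me3 only. A window of 500 bp gave 11.5% kept and 97.4% with shared bases. The share with gene-trap EZH2 was 31.3% in a window of 2.5 kb, 23.2% when at least 200 bp had to be covered and 10.5% with peaks of at least 500 bp only. Peaks of at least 500 bp put 36.8% of gene-trap H3K27me3 bases under H3K4me3, against 36.9% as reported. This small difference passed the limit because the interval counted single bases, which are not independent. Chosen after seeing the data, a restriction to genes with 1 TSS put H3K27me3 over the TSS at 46.3% of gene-trap bivalent promoters, against 53.0% over all of them with any TSS counted. The cause of these changes was not tested beyond the settings themselves. A TSS position has no shared length, so that setting gave none, and counting genes of 1 peak once gave no class other than bivalent. Depth limits what an absent peak means, and it is unknown for every list.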

Other observations

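No promoter on the X chromosome was bivalent in gene-trap cells, a comparison made after the values were seen. Of the 63 X-linked promoters that were bivalent in wild-type cells, 0 were bivalent in gene-trap cells, with an exact 95% upper limit of 5.69% (3 counts, the limit a count of 0 allows, would be 4.76%), and all 63 had H3K4me3 only. On the autosomes 556 of 3921 (14.2%, exact 95% interval 13.1 to 15.3) were bivalent in gene-trap cells. The wild-type H3K27me3 peaks at these promoters had a median width of 3555 bp on the X chromosome and 4266 bp on the autosomes. Among those of 6900 bp or more, 0 of 5 X-linked and 389 of 792 autosomal promoters (49.1%) were bivalent in gene-trap cells. The X chromosome held 0 of 840 gene-trap EZH2 peaks and 168 of 7213 wild-type ones, and 2 of 963 gene-trap H3K27me3 peaks and 115 of 6294 wild-type ones. It held 787 of 26960 gene-trap H3K4me3 peaks (2.92%) and 767 of 27418 wild-type ones (2.80%). The labels do not give the sex of either line or the parental line of the gene-trap cells, and the part of line background in these counts was not tested. Among the autosomes the kept share ran between 8.57% on chromosome 16 and 21.7% on chromosome 2, which carries the HoxD cluster.

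Genes outside the named families made up the larger part of the bivalent set in gene-trap cells. Their share of all promoters was not computed. Among them were Wt1 and Nr5a1, regulators of kidney and gonad, Cdx2 and Pdx1, regulators of intestine and pancreas, and Runx2 and Lef1. The list also held the retinoic acid genes Aldh1a2, which makes the ligand, and Cyp26a1 and Cyp26b1, which degrade it. The GABA genes Gad1, Gad2 and Slc32a1, for synthesis and vesicular loading of the transmitter, were bivalent in gene-trap cells, as were the imprinted genes Igf2, Igf2r, Grb10 and Dio3. These genes were picked from the list after it was seen, and no share was computed for such groups.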
